A study of Mus musculus with 24 samples.

Results

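The genes described here are the protein-coding genes of the mouse proteasome, chosen by symbol: every protein-coding gene in the count table whose name begins with Psma, Psmb, Psmc, Psmd, Psme, Psmf or Psmg. The rule found 50 genes among the 47643 in the table. By role these were 15 subunits of the constitutive 20S core, 17 subunits of the 19S cap, 3 catalytic subunits of the immunoproteasome (Psmb8, Psmb9 and Psmb10), the thymus-specific subunit Psmb11, 7 assembly chaperones, 5 genes of the activators PA28 and PA200, and the regulator Psmf1 (PI31). Psmc3ip was also caught by the rule, but it encodes a partner of meiotic recombinases and is no proteasome subunit. The samples were plantaris muscles, a fast-contracting hindlimb muscle, of wild-type C57BL/6 mice. The air group held 11 samples from mice that breathed normal air, and the smoke group held 13 samples from mice that had 16 weeks of tobacco smoke. Age and sex were not given in the labels used here. RNA was read from the 3′ end of transcripts (Lexogen QuantSeq 3′ FWD), so a count stands for a transcript end and is not spread along the gene's length.

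The proteasome is the protease that degrades most short-lived and ubiquitin-tagged proteins of a cell. Its 20S core is a barrel of stacked rings: outer rings of alpha subunits gate the entrance, and inner rings of beta subunits carry the catalytic sites of Psmb5, Psmb6 and Psmb7. The 19S cap recognises ubiquitin chains, unfolds the substrate with a ring of ATPases (the Psmc genes) and feeds it into the core. In cells exposed to interferon, Psmb8, Psmb9 and Psmb10 take the places of Psmb5, Psmb6 and Psmb7 in newly built cores, which favours peptides suited to antigen presentation. In skeletal muscle, the ubiquitin-proteasome route is a main path of protein loss during wasting, and the proteasome genes are known targets of the transcription factor Nfe2l1.

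Total counts per sample ran from 2515697 to 4528845, and a floor of 3 counts stood for 0.665 to 1.15 CPM (the normalised read count used here, scaled to library sizes by the trimmed mean of M-values, TMM). Fibre transcripts were abundant in every library: the 9 fibre markers summed to between 126095 and 187125 CPM in air and between 132565 and 162109 CPM in smoke. All samples were read on 1 lane, and the positions of the 2 groups in the sample sheet did not interleave, so sheet position and group cannot be told apart. The labels do not say whether samples came from separate animals, so p-values measure the spread between these samples, which may be partly technical. In bulk muscle, fewer cells of a type and less RNA per cell cannot be told apart.

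For the proteasome genes, 2 libraries stood apart from the rest of their groups. Both also varied most from their group medians over 9422 tested genes. Air replicate 11 held the air group's highest value for 10 of the 45 genes that passed the count filter, Psmb6, Psmc3 and Psmc5 among them, and its lowest value for 10 others, Psma4, Psma5, Psmb7 and Psmd12 among them. In that library Psmg1, with 1 count, deviated by -1.79 from the air median. Psma5 lay 1.10 below and Psmd12 1.04 below the air median, while Psmb6 lay 0.44 and Psmd5 0.57 above it. Deviations in this paragraph are on the scale of log2 CPM with a prior count of 2, from medians over the group. Smoke replicate 10 leaned the same way, with the group's highest value for 8 genes and its lowest for 7. The deviations of the 2 libraries correlated across the 45 genes (Spearman's rho = 0.52) and less closely across 9422 tested genes (rho = 0.36). The standard deviation of these deviations over the 45 genes was 0.446 in air replicate 11 and 0.326 in smoke replicate 10. In the other 22 libraries it ran from 0.132 to 0.2378. Over the 9422 genes it was 0.480 and 0.415 in the 2 libraries, against 0.266 to 0.387 in the others. The rho of these deviations with transcript GC content was 0.43 over the 45 genes and 0.31 over the 9422 in air replicate 11. In smoke replicate 10 it was 0.25 and 0.033. Libraries that did not stand apart reached a similar size over the 45 genes, -0.49 in smoke replicate 9 and -0.45 in air replicate 10, and the part of GC content in any result was not tested. Where leaving out air replicate 11, or both libraries, moved the estimate of a gene given in full by over 1.5 times, the value without is printed beside it.

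**Figure D1:**
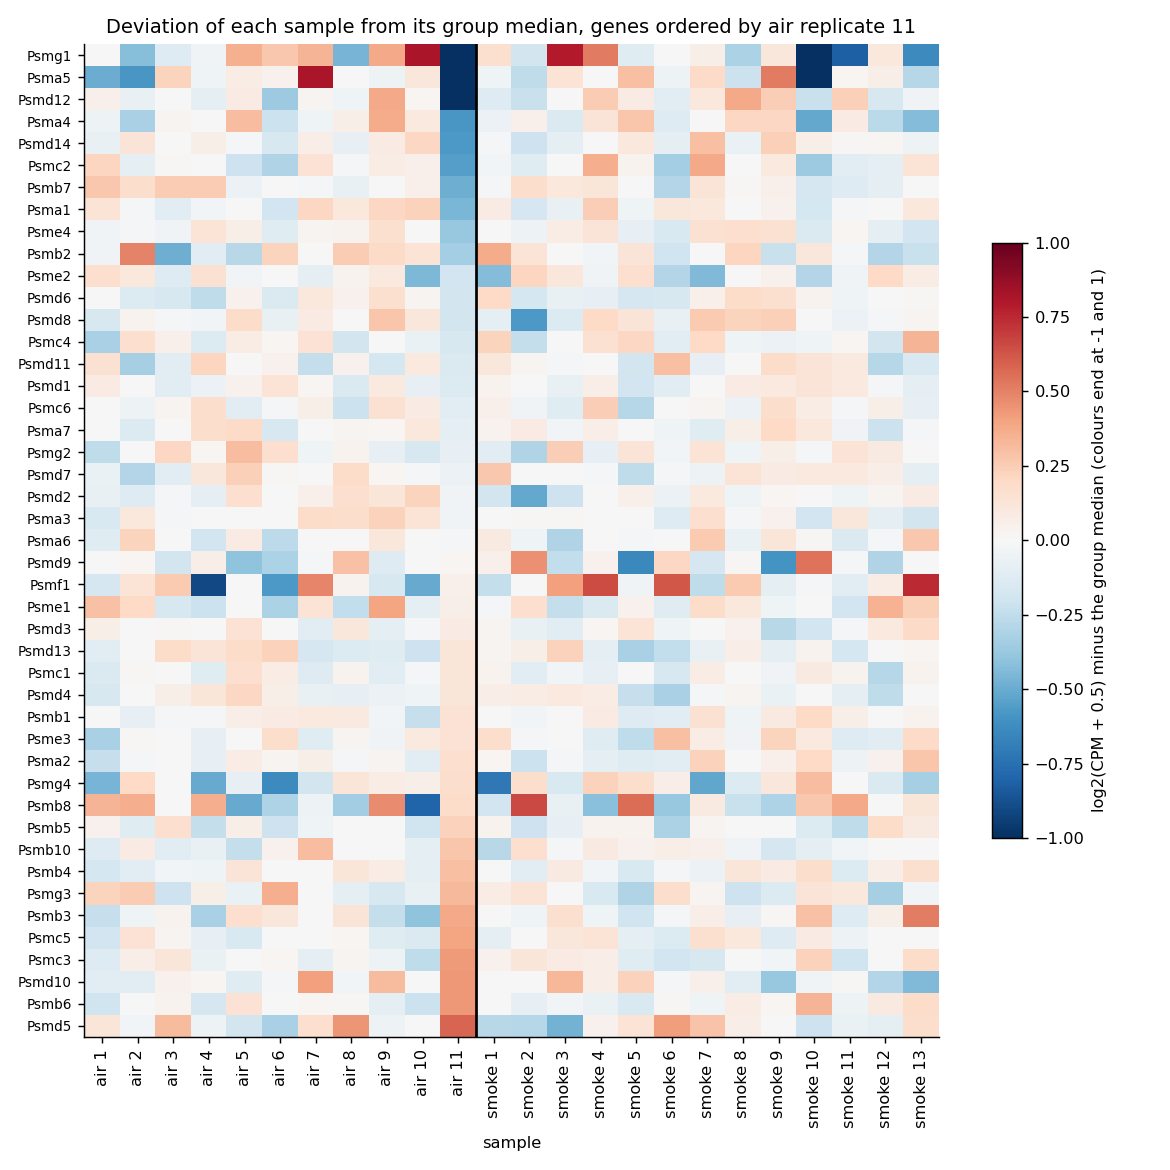
Deviation of each sample (columns, 11 air and 13 smoke) from its group's median for each of the 45 tested genes (rows, ordered by air replicate 11), as log2(CPM + 0.5), with red above and blue below the median. Air replicate 11 shows strong colours at both ends of the order, from Psmg1, Psma5 and Psmd12 at the low end to Psmb6 and Psmd5 at the high end, and smoke replicate 10 shares the low values of Psmg1 and Psma5 and the high value of Psmb6 but not that of Psmd5.

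Transcripts of the proteasome made up a small part of the muscle's RNA. The 50 genes together took from 0.485% to 0.553% of all counts in air (median 0.537%) and from 0.473% to 0.544% in smoke (median 0.510%). The core and the cap were transcribed at similar levels per subunit: the mean over the tested 20S subunits had a median of 145 CPM in air and 137 CPM in smoke, and the mean over the 19S subunits 171 CPM and 167 CPM. The ratio of cap to core ran from 1.14 to 1.25 in air and from 1.16 to 1.28 in smoke, with medians of 1.21 and 1.20, so the groups overlapped. Immunoproteasome transcripts were an order of magnitude scarcer, with a mean over Psmb8 and Psmb10 of 12.9 CPM in air and 12.6 CPM in smoke.

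Although the subunits of a ring are built into the particle in equal number, their transcripts were far from equal. Averaged over all 24 samples, the alpha subunits spanned from 8.62 CPM for Psma5 to 238.4 CPM for Psma2, a 27.6-fold range. The constitutive beta subunits ran from 17.1 CPM for Psmb2 to 444 CPM for Psmb4. Cap subunits ran from 29.8 CPM for the ATPase Psmc4 to 619 CPM for the ATPase Psmc3, the most abundant of all proteasome transcripts here. Such gaps between genes also carry how well each 3′ end was primed, annotated and uniquely aligned, and the part of this was not tested. Near-identical sequence was one measurable side of it: 10 of the 50 genes had at least 1 other gene that matched the last 300 bases of their transcript at 90% identity or more over 200 bases or more.

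**Figure D2:**
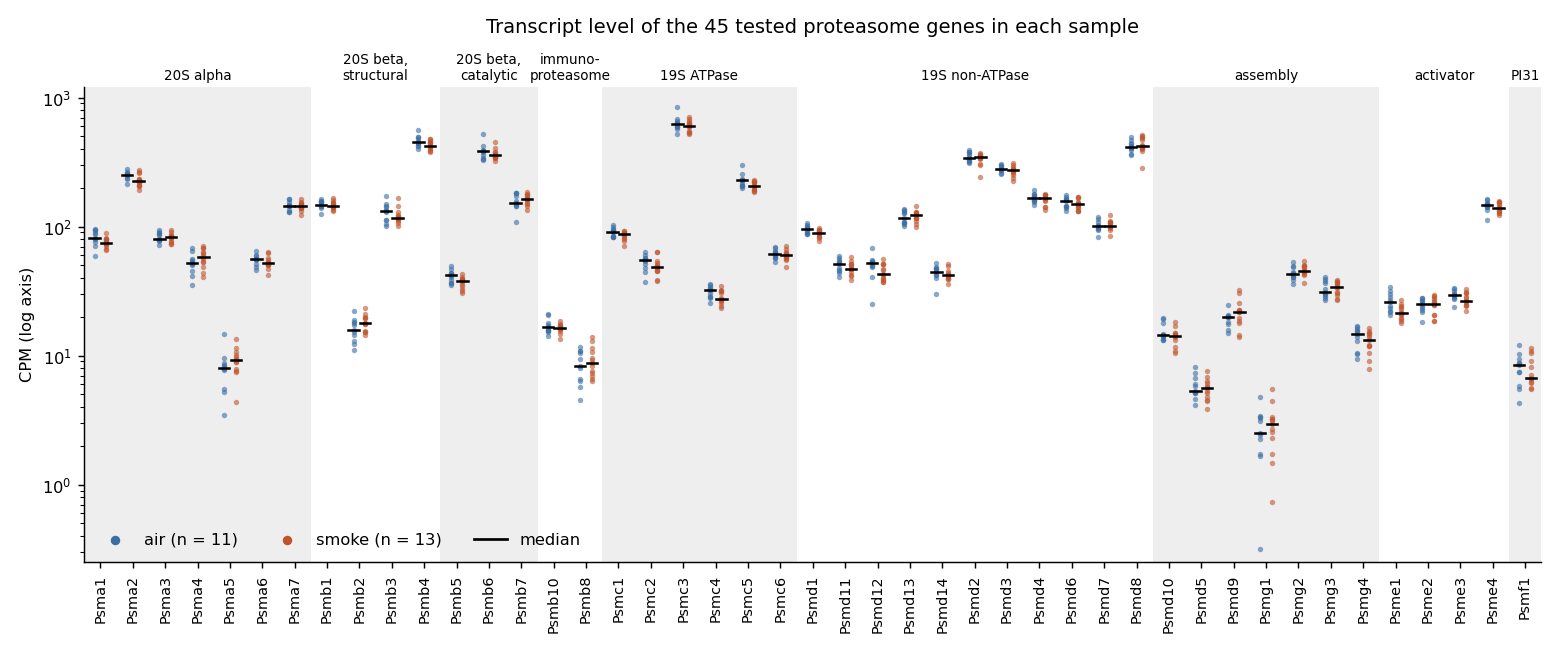
Level of each of the 45 tested proteasome genes in CPM (log axis) by subunit class, with 1 point per sample in air (blue) and smoke (orange) and black lines at the group medians. Air and smoke points overlap for every gene, while genes of the same ring differ widely. Mean levels of alpha subunits run from 8.62 CPM (Psma5) to 238.4 CPM (Psma2). Those of constitutive beta subunits run from 17.1 CPM (Psmb2) to 444 CPM (Psmb4).

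The main comparison asked which of these transcripts differed between muscles of smoke-exposed and air-breathing mice. None of the 45 proteasome genes that passed the filter was called in either direction: edgeR's quasi-likelihood test with Benjamini-Hochberg adjustment over 10159 genes called 0 of 45 at an adjusted p under 0.05, where it called 195 genes in all (1.92%), 74 higher (0.728%) and 121 lower (1.19%). At an unadjusted p under 0.05 it counted 4 of 45 (8.89%), namely Psma2, Psmb5, Psmc5 and Psme1, all with estimates below zero. Of all tested genes 15.5% passed the same mark, 7.55% higher and 7.95% lower. DESeq2 called 0, with 5 at an unadjusted p under 0.05 and 1 gene without an adjusted p, and limma voom called 0, with 4. The smallest adjusted p was that of Psme1, 0.0914 by edgeR, the only proteasome gene under 0.10, where 4.07% of all tested genes lay under that mark. The group ranges overlapped for all 50 genes.

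The data also bound how large a shift could have gone unseen. For 43 of the 45 genes, the 95% interval of the log2 fold change lay wholly within 0.5 of zero, and the exceptions were Psma5 (upper bound 0.54) and Psmg1 (upper bound 0.64), both with few counts. Point estimates were below zero for 33 of 45 genes (73.3%), with a median of -0.055, beside 48.4% of all tested genes and a median of 0.0066. By class the median log2 fold change was -0.037 for the 20S core (10 of 14 below zero), -0.059 for the 19S cap (14 of 17), 0.032 for Psmb8 and Psmb10 (1 of 2), 0.030 for the chaperones (3 of 7) and -0.073 for the activators (4 of 4). Without air replicate 11 and smoke replicate 10, 32 of 45 estimates were below zero with a median of -0.053, again 0 were called, and 6 had an unadjusted p under 0.05.

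**Figure D3:**
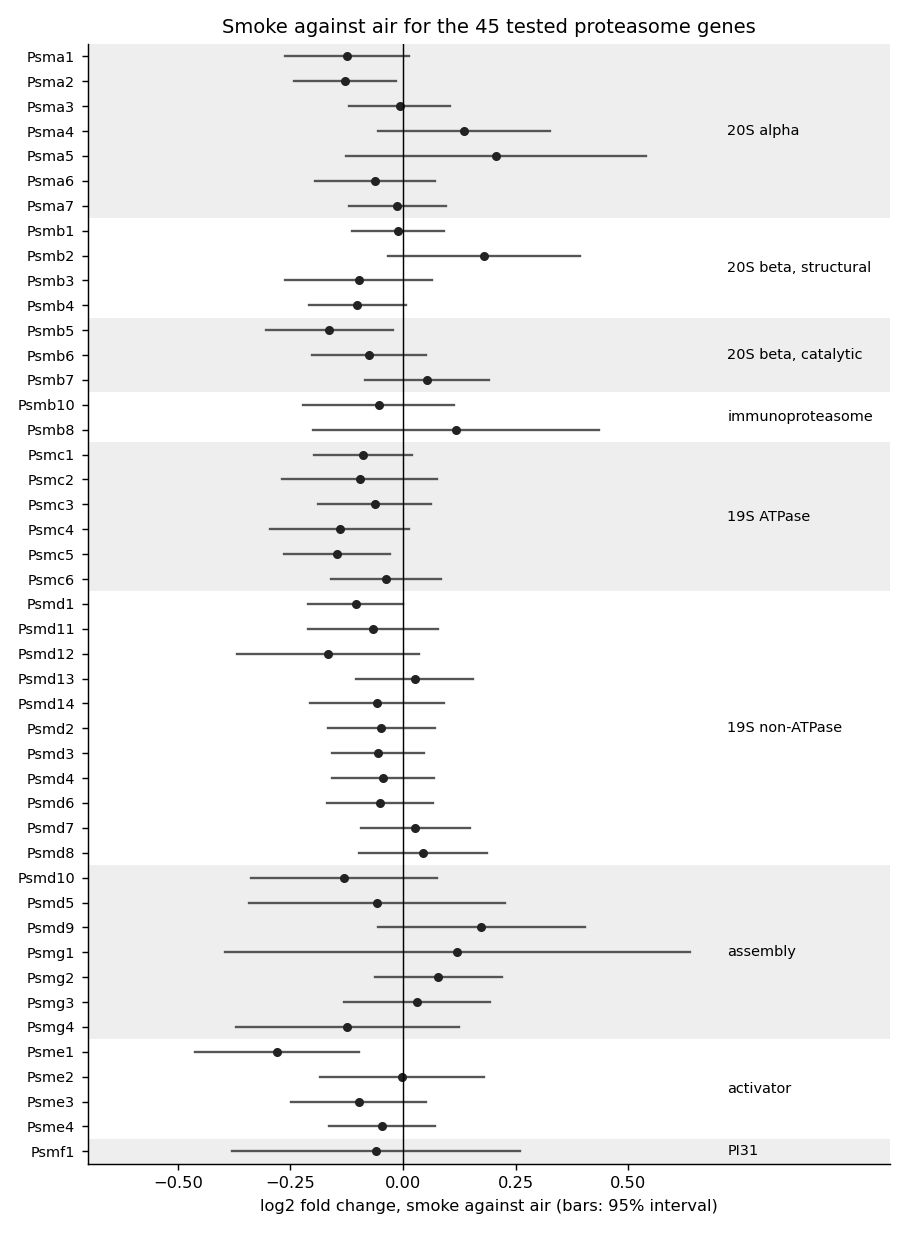
Log2 fold change of smoke against air (points) with its 95% interval (bars) for the 45 tested genes, grouped by subunit class. Most bars cross zero and all but those of Psma5 and Psmg1 end within 0.5 of it, with the lowest point at Psme1 (-0.28).

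Among the alpha subunits, which form the gate of the core, Psma2 had both the smallest p and the highest level. Its values were 214, 251.1 and 282 CPM in air (lowest, median and highest) and 194, 225 and 272 CPM in smoke. Smoke lay below the air median in 10 of 13 samples, with 3 smoke samples among the higher air values. The log2 fold change was -0.13 (95% interval -0.24 to -0.017; edgeR p = 0.0256, adjusted p = 0.233). Psma2 lies on chromosome 13 at 14613240 to 14674236 (GRCm38, plus strand). Its annotated span overlaps AW209491 on the same strand, so that its count is uncertain. Psmb5, Psmb7, Psmc5 and Psmd1, given in full below, also overlap an annotated gene on the same strand. Whether these overlaps reach the 3′ ends that were read was not tested. The other tested alpha genes had estimates from -0.12 for Psma1 to 0.21 for Psma5. Psma8, the testis form of Psma7, had 1 count in all 24 samples together.

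The structural beta subunits build the inner rings without a catalytic site. Psmb4, the most abundant of them, had 402, 454 and 561 CPM in air and 381, 424 and 479 CPM in smoke. Smoke lay below the air median in 10 of 13 samples, and the groups overlapped over most of their range (log2 fold change -0.10, edgeR p = 0.0628, adjusted p = 0.353). Psmb2 had the highest estimate of this class, 0.18, with an unadjusted p of 0.0965. Psmb3 had an estimate of -0.099, and -0.039 once 3 processed pseudogenes with matching 3′ ends were added to it. Of these, Gm5356 held 16.5% and Gm14227 14.0% as many counts as Psmb3 itself.

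Of the catalytic beta subunits, Psmb5 carries the chymotrypsin-like site. Its values were 35.5, 41.9 and 49.4 CPM in air and 30.3, 38.0 and 43.2 CPM in smoke. Smoke lay below the air median in 12 of 13 samples, though most smoke samples stayed inside the air range. The log2 fold change was -0.16 (95% interval -0.30 to -0.023; edgeR p = 0.0238, adjusted p = 0.227), and -0.13 with an unadjusted p of 0.0737 without air replicate 11 and smoke replicate 10. The count of Psmb5 is uncertain beside a near-identical copy: the processed pseudogene Psmb5-ps on chromosome 11 matches the 3′ end of Psmb5 at 94.3% identity, and it held on average 56.8 counts per sample beside 136 for Psmb5. Counts given to Psmb5-ps summed to 560 over the air samples and 804 over the smoke samples, and whether these are its own transcripts or reads of Psmb5 was not tested. With Psmb5 and its copies summed, the log2 fold change was -0.022 (95% interval -0.15 to 0.11; edgeR adjusted p = 0.918).

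Psmb6, the caspase-like subunit and the most abundant catalytic one, had 329, 382 and 517 CPM in air and 321, 358 and 452 CPM in smoke. The highest air value was that of air replicate 11 and the highest smoke value that of smoke replicate 10 (log2 fold change -0.076, edgeR adjusted p = 0.616), and without air replicate 11 the estimate was -0.029. Psmb7, the trypsin-like subunit, had 108, 152 and 183 CPM in air and 133, 163 and 184 CPM in smoke. Here air replicate 11 was the lowest sample, and 10 of 13 smoke samples lay above the air median (log2 fold change 0.053, edgeR adjusted p = 0.769). The estimate of Psmb7 was 0.0066 without air replicate 11 and 0.023 without both libraries. Psmb7 overlaps Nek6 on the opposite strand.

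**Figure D4:**
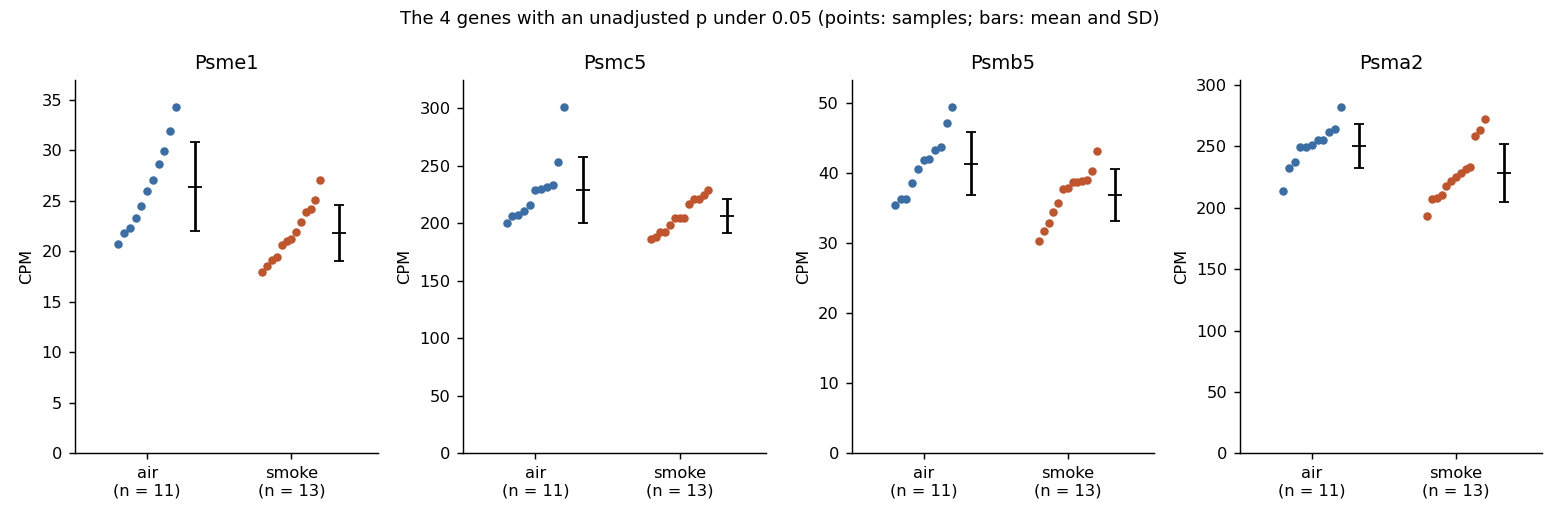
Level in CPM of the 4 genes with an unadjusted p under 0.05, with 1 point per sample sorted by value within air (n = 11) and smoke (n = 13), and the mean and standard deviation beside each group. Smoke values sit lower in the plot for each gene but overlap the air values, most clearly for Psma2, and the single highest air point of Psmc5 (301 CPM) is air replicate 11.

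The immunoproteasome subunits were low in both groups, and none of the 3 was called. Psmb8, the counterpart of Psmb5, had 4.52, 8.25 and 11.7 CPM in air and 6.37, 8.71 and 14.0 CPM in smoke, from 17 to 48 counts per sample. The groups overlapped widely, and the interval was wide too (log2 fold change 0.12, 95% interval -0.20 to 0.44; edgeR adjusted p = 0.782). Leaving out 1 library moved the Psmb8 estimate between 0.049 (without air replicate 10) and 0.18 (without air replicate 9), with 0.053 without smoke replicate 2, 0.068 without air replicate 5 and 0.073 without smoke replicate 5. Psmb10, the counterpart of Psmb7, had 14.2, 16.8 and 20.9 CPM in air and 13.5, 16.4 and 18.5 CPM in smoke. Its estimate was -0.054 (edgeR adjusted p = 0.820), -0.028 without air replicate 11, -0.019 without both libraries, -0.020 without air replicate 7 and -0.033 without smoke replicate 1. Its coefficient of variation was 12.4% in air and 7.92% in smoke, both below the 13.2% that counting alone would give. Psmb9, the counterpart of Psmb6, had 2 to 17 counts per sample and did not pass the filter. It had 0.671, 2.06 and 4.13 CPM in air and 0.732, 2.87 and 3.82 CPM in smoke, and with no filter its log2 fold change was 0.21 (edgeR p = 0.444, adjusted p = 0.754).

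Psmb9 starts beside Tap1, a peptide transporter of antigen presentation that is read in the opposite direction, and the 2 annotated genes overlap on opposite strands. Tap1 itself had 1.38, 2.47 and 4.41 CPM in air and 1.10, 3.46 and 7.69 CPM in smoke. Only 2 of 13 smoke samples lay below its air median, but its range in smoke enclosed the air range (log2 fold change 0.43, edgeR p = 0.0644, adjusted p = 0.357). Without air replicate 11 and smoke replicate 10 its estimate was 0.59 (edgeR p = 0.0105, adjusted p = 0.154). Whether the counting used strand is not given in the sources used here, so reads from Psmb9 and Tap1 cannot be told apart where they overlap.

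Set against the subunit it replaces, each immunoproteasome gene took a minor share of the pair's counts. Psmb8 made up 11.0% to 23.3% of the sum of Psmb8 and Psmb5 in air (median 16.0%) and 14.1% to 29.9% in smoke (median 18.8%). With Psmb5-ps counted alongside Psmb5, the medians were 11.9% and 13.9%. Psmb10 made up 7.70% to 15.9% of its sum with Psmb7 in air (median 9.39%) and 7.72% to 11.4% in smoke (median 9.12%). Psmb9 was the scarcest against its counterpart, with a median of 0.508% of the sum with Psmb6 in air and 0.840% in smoke. The ranges of the 2 groups overlapped for every pair, and the shares were described without a test.

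**Figure D5:**
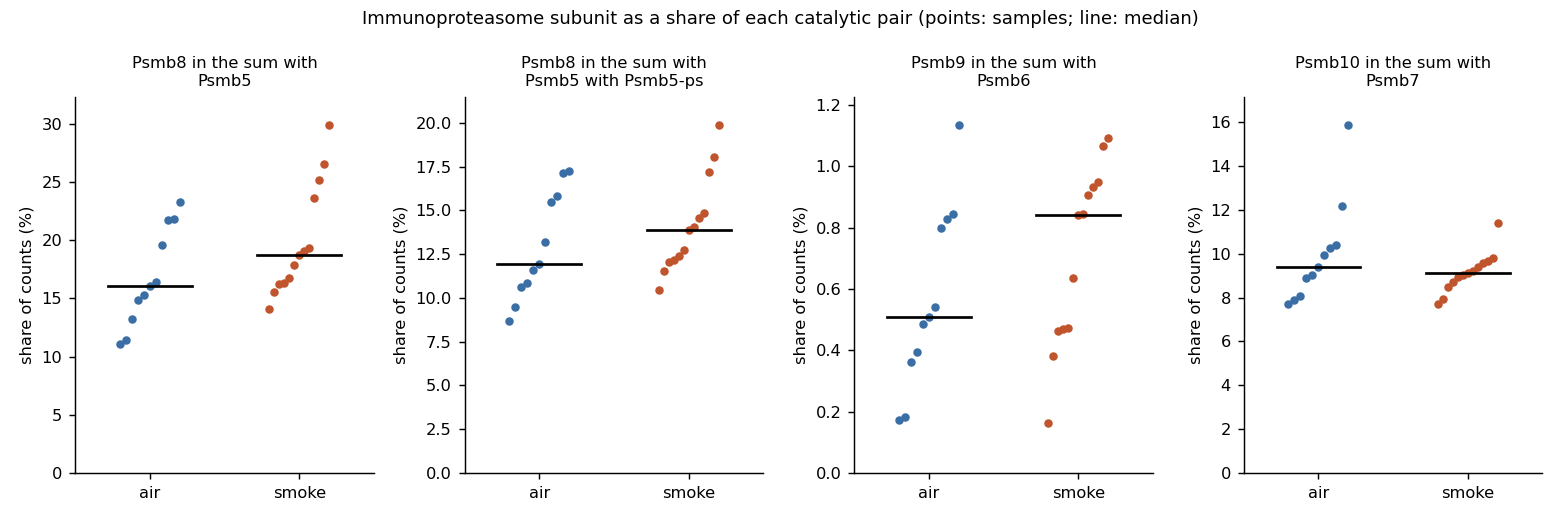
Counts of each immunoproteasome subunit as a percent of the sum with its constitutive counterpart, with 1 point per sample sorted by value within air and smoke and a line at the group median. Psmb8 reaches the largest shares (medians 16.0% in air and 18.8% in smoke), Psmb9 stays near 1% or less, and the highest Psmb10 share, 15.9%, is an air sample.

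Cells other than fibres also give RNA to a muscle sample. Of 14 leukocyte markers, 6 passed the filter, all 6 had estimates below zero and 1 fell: Cd74, the chaperone of class II antigen presentation (log2 fold change -0.74, edgeR adjusted p = 0.0273, and 0.0584 with no filter on low counts). Of all tested genes 1.19% were called lower and 48.4% had estimates below zero. The summed level of the 14 leukocyte markers ran from 76.2 to 138 CPM in air and from 78.7 to 122 CPM in smoke. The T cell marker Cd3e had 0 counts in air and 2 in smoke over all samples. Among red blood cell markers, 5 of 6 passed the filter, all 5 had estimates below zero and 3 fell (Hba-a2, Hbb-bs and Hbb-bt), with Hbb-bs at -0.84 (edgeR adjusted p = 0.0142) and a summed level of 487 to 1445 CPM in air and 369 to 884 CPM in smoke. Of 9 fibre markers 1 fell, the oxygen-binding Mb (log2 fold change -0.36, edgeR adjusted p = 0.0011), and of 8 endothelial markers 0 were called. The part of these cells in the levels of the proteasome genes was not tested.

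Within groups, no relation of an immunoproteasome gene to another or to its counterpart passed the test. Over 12 relations (6 pairs in each group, log2 CPM), Pearson's adjusted p by permutation ran from 0.495 to 0.866 and Spearman's from 0.894 to 0.946. The largest coefficient joined Psmb10 and Psmb7 in air (Pearson's r = -0.55, permutation p = 0.0825; rho = -0.45, permutation p = 0.164), while the same pair in smoke had r = 0.23 and rho = 0.38 (permutation p = 0.458 and 0.196). Once the 2 samples of each group with the most extreme Psmb10 were dropped, r was -0.08 in air, so the air value rests on them, and 0.49 in smoke (0.078 under another scaling, RLE).

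The ATPases of the 19S base thread substrates into the core, and all 6 had estimates below zero, from -0.15 to -0.037, with none called. Psmc5 had the smallest p: 200.4, 228.8 and 301 CPM in air and 187, 205 and 229.1 CPM in smoke. Smoke lay below the air median in 12 of 13 samples, and the top air value was that of air replicate 11. The log2 fold change was -0.15 (95% interval -0.26 to -0.028; edgeR p = 0.0165, adjusted p = 0.195), and -0.11 with an unadjusted p of 0.0434 without air replicate 11 and smoke replicate 10. Psmc3 had 525, 625 and 842 CPM in air and 526, 602 and 708 CPM in smoke (log2 fold change -0.063, edgeR adjusted p = 0.694), and the estimate was -0.017 without air replicate 11 and -0.034 without both libraries. It overlaps Slc39a13 on the opposite strand, and both of its highest values came from the libraries that stood apart.

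The 11 tested non-ATPase subunits of the cap hold its ubiquitin receptors, scaffold and deubiquitinase. Psmd1, the large scaffold subunit of the base, had 86.9, 96.3 and 106 CPM in air and 77.2, 88.5 and 97.03 CPM in smoke. It lay below the air median in 12 of 13 smoke samples, and the interval reached zero (log2 fold change -0.10, edgeR p = 0.0511, adjusted p = 0.326). Without the 2 libraries its estimate was -0.13 with an unadjusted p of 0.0207. Psmd8, a lid subunit and the most abundant of the class, had 360, 410 and 498 CPM in air and 284, 424 and 510 CPM in smoke (log2 fold change 0.044, edgeR adjusted p = 0.829), and the estimate was 0.020 without air replicate 11 and 0.026 without both libraries. Leaving out 1 library moved the Psmd8 estimate between 0.019 (without smoke replicate 7) and 0.083 (without smoke replicate 2). The deubiquitinase Psmd14 and the ubiquitin receptors Psmd2 and Psmd4 had estimates of -0.059, -0.048 and -0.045.

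The 7 assembly chaperones within the naming rule lay below the mean core or cap subunit, with a mean per gene of 19.04 CPM in air and 19.5 CPM in smoke. Single subunits such as Psma5 (8.62 CPM) and Psmb2 (17.1 CPM) were lower still. Pomp, a chaperone outside the rule, was far higher, with medians of 331 CPM in air and 313 CPM in smoke. Psmd9, a chaperone of the ATPase ring, had the smallest p of the class, with 14.9, 19.9 and 24.5 CPM in air and 13.8, 21.9 and 32.2 CPM in smoke. Smoke samples spread beyond the air range on both sides, and the highest was smoke replicate 10 (log2 fold change 0.17, edgeR adjusted p = 0.498). Psmg2, the most abundant of the class and a partner of Psmg1 in building the alpha ring, had 36.1, 43.1 and 53.5 CPM in air and 36.7, 45.3 and 53.7 CPM in smoke. The groups covered nearly the same range (log2 fold change 0.078, edgeR adjusted p = 0.649). Psmg1 varied most among the tested genes, with a coefficient of variation of 44.6% in air. Counting alone would give 32.0% at its mean count over all samples.

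Activators open the core without using ubiquitin. Psme1, which with Psme2 forms the interferon-inducible PA28 ring, had the lowest fold change of the 45 genes: 20.7, 26.0 and 34.2 CPM in air and 17.9, 21.2 and 27.1 CPM in smoke. Smoke lay below the air median in 12 of 13 samples, and the upper part of the air range held no smoke sample. The log2 fold change was -0.28 (95% interval -0.46 to -0.098; edgeR p = 0.0035, adjusted p = 0.0914), so it was not called at 0.05, and -0.27 (edgeR adjusted p = 0.118) without the 2 libraries. Psme1 lies on chromosome 14 at 55578123 to 55581529 (GRCm38, plus strand) and overlaps Emc9 on the opposite strand.

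Its partner Psme2 covered nearly the same range in both groups. Psme2 had 18.1, 24.9 and 28.0 CPM in air and 18.4, 25.2 and 29.3 CPM in smoke, with an estimate of -0.0028 (95% interval -0.18 to 0.18). The difference between the 2 partners was not tested. Psme2b, a copy of Psme2 at 99.0% identity over its 3′ end, had 0 to 2 counts per sample. Psme3, which forms the nuclear PA28 ring, had an estimate of -0.099, and Psme4 (PA200), the most abundant activator, had 112, 146 and 163 CPM in air and 123, 140 and 157 CPM in smoke (log2 fold change -0.047, edgeR adjusted p = 0.764), with -0.082 without air replicate 11. Psmf1, the regulator PI31, had 4.31, 8.49 and 12.1 CPM in air and 5.54, 6.70 and 11.5 CPM in smoke (log2 fold change -0.060, edgeR adjusted p = 0.908). All smoke values of Psmf1 lay within its air range, at a depth of 16 to 44 counts per sample, and its estimate was 0.015 without air replicate 7, -0.13 without air replicate 4 and -0.032 without air replicate 11 and smoke replicate 10. Of the genes under the filter not yet given, the thymus-specific Psmb11 had 1 count in all samples together, and Psmc3ip had 3 to 20 counts per sample.

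How far transcripts of the core and the cap moved together from sample to sample was read within groups. After group means were removed, the median Pearson's r over 91 pairs within the 20S core was -0.029, over 136 pairs within the 19S cap 0.04, and over pairs of a core with a cap subunit 0.10, beside 0.027 over all pairs of the 1891 genes at 50 CPM or more. Without air replicate 11 and smoke replicate 10 these medians were 0.063, 0.09 and 0.14, beside 0.03. Single pairs spread widely around these medians: 21.98% of pairs within the core had r beyond 0.5 in either direction, and 11.0% without air replicate 11 and smoke replicate 10. The same share was 13.2% within the cap (9.56% without the 2 libraries) and 11.8% over the genes at 50 CPM or more (6.56%). Some pairs, named after their values were seen, were high either way, such as Psmb3 with Psmb6 (r = 0.85, and 0.84 without the 2 libraries) and Psmd2 with Psmd8 (0.80 and 0.81). Others leaned on the 2 libraries, such as Psmb6 with Psmb7 (-0.68 and -0.38). These coefficients describe 24 samples that share scaling and depth and were given no test.

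Regulators and partners of the proteasome outside the naming rule were read next, from a list of 52 genes of which 45 passed the filter. None was called, 6 had an unadjusted p under 0.05 (13.3%, beside 15.5% of all tested genes), and 28 estimates lay below zero (62.2%, beside 48.4%). Adrm1, the ubiquitin receptor Rpn13 of the cap, had 19.7, 24.4 and 32.7 CPM in air and 18.5, 20.5 and 23.95 CPM in smoke. All 13 smoke samples lay below the air median (log2 fold change -0.23, edgeR p = 0.0096, adjusted p = 0.151), and the estimate was -0.17 without the 2 libraries. Pomp, the chaperone of the maturing core, had 297, 331 and 398 CPM in air and 278, 313 and 360 CPM in smoke, with an estimate of -0.057 (edgeR adjusted p = 0.658), and -0.031 without air replicate 2.

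Nfe2l1, the factor that drives proteasome genes when the proteasome falls short, had 385, 693 and 783 CPM in air and 545, 687 and 770 CPM in smoke. Its lowest air value was that of air replicate 11, and the estimate of 0.049 (edgeR adjusted p = 0.832) turned to -0.013 without that library and was 0.0069 without both. Mafg, a small Maf protein that pairs with Nfe2l1 and Nfe2l2, had 78.1, 89.9 and 109 CPM in air and 66.6, 80.5 and 91.6 CPM in smoke. It lay below the air median in 12 of 13 smoke samples (log2 fold change -0.23, edgeR adjusted p = 0.0632), and DESeq2 called it (adjusted p = 0.0327). Uba6, another ubiquitin-activating enzyme, had 12.3, 15.8 and 24.5 CPM in air and 14.6, 19.3 and 24.4 CPM in smoke (log2 fold change 0.19, edgeR adjusted p = 0.396).

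Promoter sequence was read because Nfe2l1 and interferon factors are the best known routes of joint control. RefSeq windows (GRCm38.p6, 250 bases before to 50 after the start) matched 42 of the 50 genes. The core of the antioxidant response element bound by Nfe2l1 (TGACNNNGC, either strand) lay in 6 of 42 windows (14.3%), beside 14.0% of 27025 genes. The element is shown for the core and cap subunits that hold it, in capitals with the bases beside it that lie before the start: Psmb5 (chr14:54618024-54618052, minus strand) and Psmb6 (chr11:70525338-70525356, plus strand) of the core, and Psmc6 (chr14:45329587-45329615, plus strand) and Psmd12 (chr11:107479278-107479299, plus strand) of the cap, where the match is to the reverse complement.
Psmb5: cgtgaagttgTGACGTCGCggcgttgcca
Psmb6: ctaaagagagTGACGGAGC
Psmc6: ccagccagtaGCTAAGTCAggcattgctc
Psmd12: tctGCTGTGTCAcatttgcccc

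The interferon-gamma activated site (TTCNNNGAA) lay in 3 of the 42 windows (7.14%, Psmb8, Psmd2 and Psmg1), beside 9.55% of all genes. The core of the interferon-stimulated element (GAAA, any 2 bases, GAAA, on either strand) lay in 5 (11.9%, Psmb3, Psmd4, Psmd9, Psme1 and Psmg4), beside 3.99%. The CCAAT box, either strand, lay in 15 (35.7%), beside 41.1%. A match is a run of letters and not a bound site, and the windows give nothing on binding in these muscles.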

How the data were processed

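The deposited table holds raw read counts for Ensembl gene IDs, with a column for each sample, per the file headers. STAR, DESeq2 and mm9 are named in the submitters' processing notes. The annotation, any use of strand and any use of molecular identifiers are not given in the sources used here, so the detection floors cover counting error only. Symbols and coordinates (1-based) came from GENCODE M21 (GRCm38), which held 47224 of 47643 IDs (99.1%) and may differ from the annotation used for counting.

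Counts were tested with edgeR 4.0.16 in R 4.3.3 on all 24 samples without covariates: filterByExpr with a minimum count of 10, TMM scaling, and the quasi-likelihood test of smoke against air. P-values were adjusted by Benjamini-Hochberg over the 10159 genes tested and called under 0.05. CPM values use TMM-scaled library sizes. Intervals of 95% come from the fitted standard error and include the spread between samples. Correlations used log2 CPM with a prior count of 2 and 100000 permutations. Alternatives used DESeq2 1.42.0, limma 3.58.1, other scalings and filters, a threshold of 0.10, a block for the replicate number, and leaving out each sample. Added after seeing the data were genes summed with pseudogene copies (blastn 2.17.0, last 300 bases) and the joint removal of air replicate 11 and smoke replicate 10. The tests were checked on simulated data.

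Genes given in full were those called, the catalytic and immunoproteasome subunits, and in each class the gene with the smallest p and the one with the highest level. Among related genes they were those called, the 2 with the smallest p in each direction, Nfe2l1, Pomp and Adrm1. Of the related genes so picked, 1 is not reported here. The members and lists were chosen with earlier results of these data known. Replicate numbers were taken from the sample titles.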

Additional observations from a re-analysis of the deposited data

How the results depend on the processing

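The count of 0 called proteasome genes was the same under each scaling, filter, tool and left-out sample tried, and became 1 (Psme1) at an adjusted p under 0.10. A replicate block, fitted over 22 samples, also gave 0. Same-numbered air and smoke samples did not deviate together (mean r = -0.0059 over 11 pairs, 0.0011 over 132 other pairs), so the numbers were not treated as pairs. Over all genes the main count of 195 was 323 under DESeq2, 413 at an adjusted p under 0.10, 138 with the replicate block and 215 without air replicate 11 and smoke replicate 10, and from 141 to 254 with 1 sample left out. Among related genes the count was 1 under DESeq2 (Mafg), 1 with no filter, 2 at an adjusted p under 0.10, and from 0 to 2 with 1 sample left out: Mafg was called without air replicate 6, 7 or 11 and without smoke replicate 11. The cause was not tested. Of 253 comparisons of named genes under alternatives other than leaving out 1 sample, 0 reversed, and Mafg was called under DESeq2, as above. In a separate set of comparisons, of 23 named genes with each of the 24 samples left out in turn, 545 matched the main result in direction and call and 2 reversed, Psmf1 without air replicate 7 (0.015, over a range from -0.13) and Nfe2l1 without air replicate 11 (-0.013, over a range up to 0.076). Without the 10 most abundant genes in the totals the scale of CPM shifted, to 241.8 CPM in air and 230 CPM in smoke per 20S subunit, 285 and 279 per 19S subunit, and 21.7 and 20.9 for the immunoproteasome. Depth limits what can be said of Psmb9, Psma5 and Psmg1, whose counts fell to 2, 11 and 1 in the lowest samples.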
